A study of Mus musculus with 6 samples.

Results

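The 9 hedgehog pathway genes described here are the ligand Shh, the receptor Ptch1, the decoy receptor Hhip, the co-receptors Boc, Cdon and Gas1, and the Gli transcription factors Gli1, Gli2 and Gli3. They were taken by symbol from count tables of 24453 genes, all 9 were found, and all 9 passed the filter on low counts that left 14890 genes for testing. RNA sequencing was done on epidermal cells sorted from back skin of newborn mice at postnatal day 0, in 3 libraries of genotype Control and 3 of genotype Ring1a-/- Ring1b-/-. The alleles of the controls, the Cre line, if any, and the number of animals per library are not given in the sources used here. The sort gate was EpCAM and Sca1 positive with high α6-integrin, which enriches the interfollicular epidermis and its progenitors. Ring1a and Ring1b are the ubiquitin ligase subunits of PRC1, a Polycomb complex that marks histone H2A and represses developmental genes.

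In hedgehog signalling, the secreted ligand binds Patched (Ptch1) at the cell surface, with help from the co-receptors, and so frees Smoothened to signal through the primary cilium. The Gli proteins then act on target genes, Gli2 mainly as an activator and Gli3 mainly as a repressor, while Gli1, Ptch1 and Hhip are themselves targets whose transcript levels serve as readouts of the pathway. In developing skin, Shh is made by the epithelium of the hair placode and follicle, signals to that epithelium and to the dermal condensate, and drives follicle downgrowth.

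Of the 9 genes, 8 had a negative log2 fold change in the knockout-labelled against the control-labelled epidermis, beside a median of 0.00 for all tested genes. Among the 8, Hhip was well within its error at -0.14 ± 1.42 (SE, 3 libraries per group). The test called 3 lower, where it called 2.98% of all tested genes lower. Cdon, Gas1 and Gli2 fell to between 0.392 and 0.514 of the control-labelled level. Ptch1 was at 0.402 of the control-labelled level in the fit but missed the threshold. All 3 of its knockout-labelled libraries were below all 3 control-labelled ones, as in 14.8% of all tested genes. Gli1, Gli3, Shh, Hhip and Boc did not pass, and Boc was the 1 member with a positive log2 fold change.

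Ctrl1, Ctrl2 and Ctrl3 stand below for the control-labelled replicates and dKO1, dKO2 and dKO3 for the knockout-labelled ones. The libraries held 18951665 to 31187270 counts. Levels are given as CPM, counts scaled by the TMM library sizes, and 0 counts in a library allow up to 3, or 0.0974 to 0.154 CPM. Separate animals are not stated for the replicates, and p-values therefore reflect the spread of these libraries only, which may be technical. The targeted gene Ring1 did not follow the labels in every library, with 30.9, 17.1 and 3.90 CPM in Ctrl1 to Ctrl3 and 1.66, 5.20 and 14.2 CPM in dKO1 to dKO3. Rnf2, which encodes Ring1b, had 43.2 to 63.1 CPM in the control-labelled and 55.4 to 64.0 CPM in the knockout-labelled libraries, and since the deleted part of the gene is not given, this checks no label. Xist, transcribed from the inactive X chromosome, was at 1756 to 6129 CPM in Ctrl3, dKO1 and dKO2 and at 10.5 CPM or less in the other libraries. On the first principal component (56.7% of the variance) Ctrl3 and dKO3 lay with the groups they are labelled as (-84.6 to -64.0 for the control-labelled and 57.8 to 93.5 for the knockout-labelled libraries), and an exchange of the labels of replicate 3 was not tested further. Ctrl1 and dKO1 stood apart from the rest on the second principal component (55.3 and 62.7 against -38.8 to -15.2). Results are therefore also given without replicate 3 and without replicate 1 of each group.

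Markers of the gate were present, with a summed level of 29484 to 43800 CPM in the control-labelled and 25683 to 30790 CPM in the knockout-labelled libraries for 8 genes led by Krt5. Of these, Trp63, which encodes the p63 factor of basal cells, fell from 1759 ± 30.4 to 1015 ± 108 CPM (SD, n = 3 libraries; edgeR adjusted p = 0.0176), and Col17a1, a hemidesmosome collagen, from 3258 ± 273 to 1954 ± 171 CPM (edgeR adjusted p = 0.0278). The other 6 were not called, among them Epcam, an antigen of the gate, which was higher without overlap, at 138 ± 26.8 and 268 ± 98.0 CPM (edgeR adjusted p = 0.0598). Markers of hair placode and follicle, 16 genes led by Krt17, summed to 1113 to 1176 CPM and 1786 to 2152 CPM. Of the 16, 1 was called higher and 3 lower, beside 7.17% and 2.98% of all tested genes. Krt17 itself was not called, at 533 ± 160 and 858 ± 105 CPM (SD, n = 3 libraries; edgeR adjusted p = 0.118). Of the others not called, Edar, Lgr5, Dkk4, Gata3 and Tchh had negative log2 fold changes (-1.88 to -0.08). Lhx2, Krt75, Msx2, Hoxc13, Foxn1 and Cux1 had positive ones (0.51 to 1.97). The higher sum was not shared by the inner root sheath keratins: Krt79, a keratin of the upper follicle, rose from 27.3 ± 14.9 to 447 ± 55.8 CPM (SD, n = 3 libraries; edgeR adjusted p = 8.62e-04), whereas Krt27 fell from 3.05 ± 2.09 to 0.268 ± 0.115 CPM (edgeR adjusted p = 0.0235), and Krt25 fell to 0 counts in all 3 libraries, at least 193-fold lower if 3 counts are allowed over the group. Markers of dermal fibroblasts and papilla, 12 genes led by Dcn, summed to 409 to 949 CPM and 724 to 1152 CPM. Where 7.17% of all tested genes were called higher and 2.98% lower, 3 of the 11 tested here rose and 0 fell. These were Fbn1 (20.2 ± 9.12 to 85.6 ± 6.10 CPM), Thy1 (35.9 ± 13.3 to 81.5 ± 12.9 CPM) and Crabp1, the last from 1 control-labelled count (ratio 539.8, 95% interval 96.5 to 21361 for counting error only). Crabp1 passed the count filter through the knockout-labelled libraries alone, as Krt25 did through the control-labelled ones. Of those not called, Lum had the lowest log2 fold change at -1.69 (edgeR adjusted p = 0.198), with 7.77 ± 7.42 and 2.39 ± 1.26 CPM (SD, n = 3). Pdgfra had the highest at 1.24 (edgeR adjusted p = 0.204), and Dcn was at 0.31 (0.634). Col1a1, Col1a2 and Vim were at 0.23, -0.09 and -0.12, and the groups overlapped for every gene not called. Summed levels were 12.9 to 16.3 and 16.3 to 27.3 CPM for 7 melanocyte genes (led by Pmel), 7.69 to 48.3 and 8.18 to 39.1 CPM for 6 endothelial genes (led by Cdh5), 102 to 223 and 50.2 to 184 CPM for 6 immune genes (led by Cd74), 77.6 to 104 and 84.0 to 113 CPM for 6 Schwann cell and neuron genes (mostly Erbb3), and 1.83 to 3.56 and 0.309 to 2.42 CPM for 6 skeletal muscle genes (led by Tnnt3). The part of these cell types in the results below was not tested. In a bulk sample, fewer cells of a type and less RNA per cell cannot be told apart.

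Promoter sequences were at hand for 6 members, Cdon, Gas1, Gli2, Gli3, Hhip and Ptch1, as RefSeq windows from 250 bases before to 50 bases after a start site on GRCm38.p6. The windows of the 4 members whose groups did not overlap are printed to show their CpG content. CpG content is a feature of the promoters at which Polycomb complexes are known to act. The 4 windows differ in it, and its bearing on the levels of these genes was not tested. Each runs 5′ to 3′ on the strand of the gene, and capitals mark every CpG (the letters CG, the same on both strands). The Cdon window is chr9:35451826-35452125 on the plus strand, and the others are on the minus strand, at chr13:60177486-60177785 for Gas1, chr1:119053570-119053869 for Gli2 and chr13:63565686-63565985 for Ptch1. The Cdon and Ptch1 windows lie inside the annotated gene, away from its 5′ end. The Gas1 window lies outside the annotated gene, before its 5′ end.
Cdon: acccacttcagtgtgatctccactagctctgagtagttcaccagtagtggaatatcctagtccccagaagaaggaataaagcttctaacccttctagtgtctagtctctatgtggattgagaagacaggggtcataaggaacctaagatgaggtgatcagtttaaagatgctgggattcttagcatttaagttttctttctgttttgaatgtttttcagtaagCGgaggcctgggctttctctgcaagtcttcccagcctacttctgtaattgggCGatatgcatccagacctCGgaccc
Gas1: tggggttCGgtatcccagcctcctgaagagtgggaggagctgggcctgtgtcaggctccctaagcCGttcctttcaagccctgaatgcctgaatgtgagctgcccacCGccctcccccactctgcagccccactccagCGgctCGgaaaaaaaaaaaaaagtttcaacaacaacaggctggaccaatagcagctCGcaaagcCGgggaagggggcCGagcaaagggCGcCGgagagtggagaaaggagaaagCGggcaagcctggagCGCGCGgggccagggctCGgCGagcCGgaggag
Gli2: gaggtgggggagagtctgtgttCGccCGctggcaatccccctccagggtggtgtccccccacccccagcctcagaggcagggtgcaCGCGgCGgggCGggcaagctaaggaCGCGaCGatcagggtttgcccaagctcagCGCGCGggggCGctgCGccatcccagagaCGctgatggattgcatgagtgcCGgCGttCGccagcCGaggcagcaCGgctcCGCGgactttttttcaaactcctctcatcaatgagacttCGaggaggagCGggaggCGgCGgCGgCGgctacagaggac
Ptch1: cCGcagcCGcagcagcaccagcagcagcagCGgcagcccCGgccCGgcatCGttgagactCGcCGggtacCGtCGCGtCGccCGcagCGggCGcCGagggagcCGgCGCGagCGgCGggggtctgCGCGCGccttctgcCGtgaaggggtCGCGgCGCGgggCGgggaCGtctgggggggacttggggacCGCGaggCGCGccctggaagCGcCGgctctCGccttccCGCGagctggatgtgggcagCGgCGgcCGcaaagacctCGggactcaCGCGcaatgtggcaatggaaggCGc

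The windows held 3 CpGs for Cdon, 17 for Gas1, 28 for Gli2 and 47 for Ptch1, against a median of 7 over all 32851 windows of 300 bases. Those of Hhip and Gli3 held 30 and 39. With an observed to expected CpG ratio over 0.6 and a GC content over 50%, 4 of the 6 windows counted as CpG-rich, against 33.3% of all windows. The exceptions were Cdon, with a ratio of 0.201, and Gas1, with 0.587. The calls rest on counts of whole genes, not of transcripts from these windows, and the start at the 5′ end of the annotated Cdon gene was not analysed here. The GLI core motif GACCACCCA, searched on both strands, was in 0 of the 6 windows and in 0.253% of all windows, which says only that these letters are not in these stretches.

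Levels differed widely among the members. Per kilobase of annotated exon, Ptch1 was the highest in the control-labelled libraries at 109 ± 32.9 CPM per kb (SD, n = 3), above 98.7% of the 14556 tested genes with a known length. Gas1 (75.9 ± 13.5), Cdon (51.7 ± 12.4) and Gli2 (49.9 ± 16.7 CPM per kb) followed. These are levels of the sorted bulk sample, and which cells held the transcripts was not tested.

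Gli1 (22.3 ± 5.27), Gli3 (16.6 ± 7.21) and Boc (12.5 ± 3.84 CPM per kb) came next. Shh was far lower at 2.15 ± 2.55 CPM per kb, above 35.6% of tested genes, and Hhip lowest at 0.112 ± 0.0968, above 4.77%. Libraries overlapped between Ptch1 and Gas1, between Cdon and Gli2, between Gli1 and Gli3, and between Gli3 and Boc, so the order of these neighbours is not resolved. In the knockout-labelled libraries the order was Ptch1, Gas1, Gli2, Cdon, Boc, Gli1, Gli3, Shh and Hhip, with overlap between all neighbours except Gas1 and Gli2, and Gli3 and Shh. Boc moved up from the seventh to the fifth place, while its own level per kb was 14.2 ± 5.67 CPM.

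The ligand was scarce and uneven. Shh (chromosome 5, 28456815 to 28467256, on the minus strand of GRCm38, the build of all positions here) was at 14.5, 1.88 and 1.98 CPM in Ctrl1 to Ctrl3 and 3.25, 0.257 and 0.552 CPM in dKO1 to dKO3, from 5 to 387 counts. Ctrl1 stood far above the other controls, dKO1 lay above Ctrl2 and Ctrl3, and the groups overlapped. The log2 fold change was -2.16 ± 1.09 (SE, 3 libraries in each group; edgeR adjusted p = 0.269) and missed the threshold, and without Ctrl1 it was -0.50 (edgeR adjusted p = 0.835). Shh shares 446 exonic bases with 9530036O11Rik on the opposite strand, which had 0 to 0.772 CPM and was highest in dKO2, and the strand of counting is not given.

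Ptch1 (chromosome 13, 63508328 to 63573598, minus strand), the receptor that holds Smoothened inactive and is itself a target, had 1936, 1025 and 1656 CPM in Ctrl1 to Ctrl3 and 975, 438 and 446 CPM in dKO1 to dKO3. The groups did not overlap, but dKO1 came within a small step of Ctrl2. The log2 fold change was -1.31 ± 0.36 (SE, n = 3 per group), which missed the threshold (edgeR adjusted p = 0.0546). It passed in 9 of 17 alternative analyses, among them DESeq2 (adjusted p = 0.00409), limma-voom (adjusted p = 0.0345) and the edgeR fit without dKO1 (adjusted p = 0.00999), and the edgeR adjusted p was 0.310 with replicates 1 and 2 alone and 0.00229 with replicates 2 and 3 alone.

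Hhip (chromosome 8, 79965851 to 80058006, minus strand), which encodes a membrane protein that sequesters the ligand, had 2.02, 0.568 and 0.444 CPM in Ctrl1 to Ctrl3 and 2.63, 0 and 0.0974 CPM in dKO1 to dKO3. These are 0 to 76 counts a library, so the level rests on Ctrl1 and dKO1. The log2 fold change of -0.14 ± 1.42 (SE, n = 3 per group) was not called (edgeR adjusted p = 0.969), and was -4.09 without dKO1 and 0.85 without Ctrl1.

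**Figure D1:**
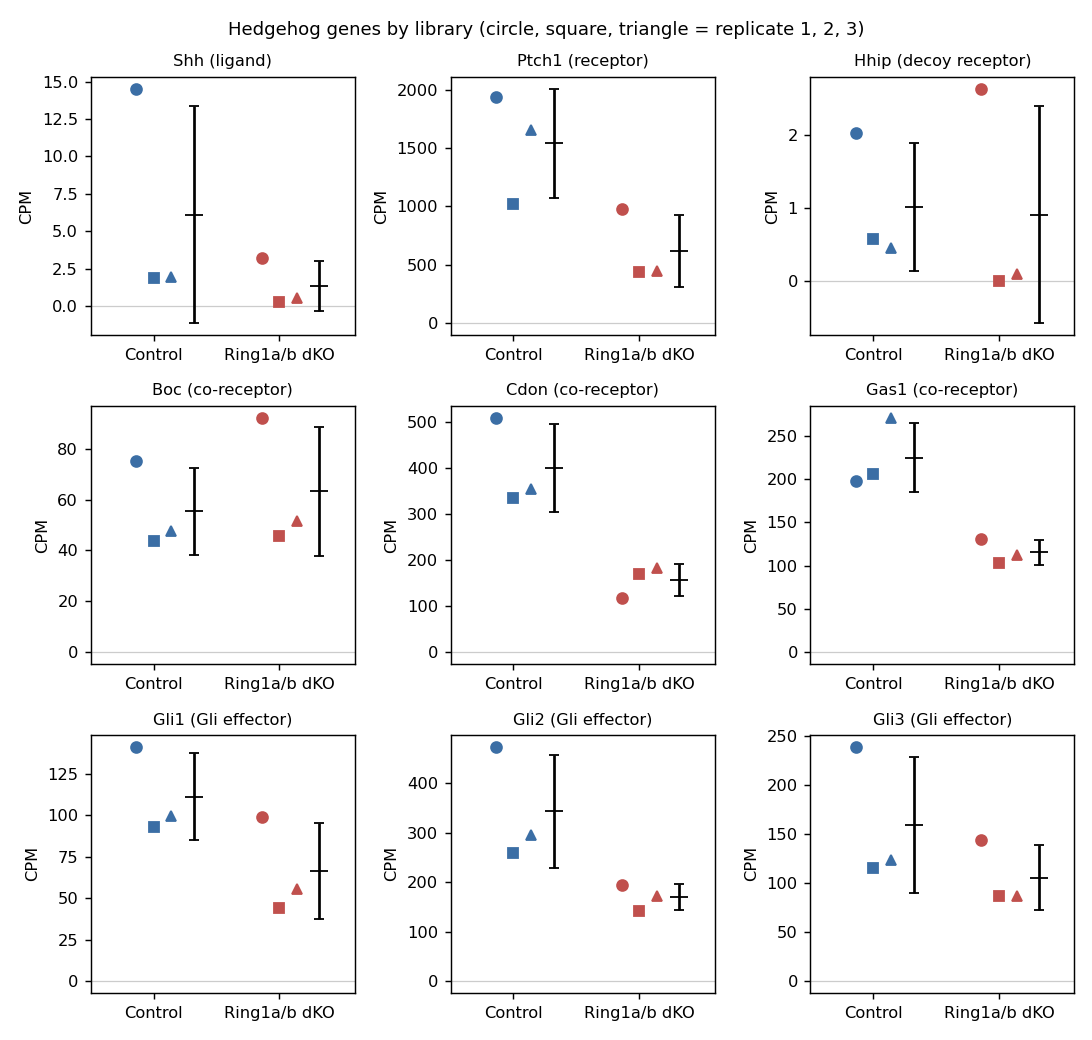
CPM (vertical axis, scaled counts) of each of the 9 members in the 3 control-labelled (blue) and 3 knockout-labelled (red) libraries, with the mean and SD of each group in black. Cdon, Gas1, Gli2 and Ptch1 show no overlap between groups, and replicate 1, the circle, is highest in both groups for 7 of the 9.

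The co-receptors behaved unequally. Cdon (chromosome 9, 35421128 to 35507652, plus strand), a cell-surface protein of immunoglobulin and fibronectin domains that binds the ligand, had 509, 335 and 354 CPM in Ctrl1 to Ctrl3 and 117, 170 and 182 CPM in dKO1 to dKO3. Every knockout-labelled library was below every control-labelled one. Cdon fell, with a log2 fold change of -1.35 ± 0.24 (SE, n = 3 per group, edgeR adjusted p = 0.00949), 2.55-fold lower. The call held without any 1 library and was lost with replicates 1 and 2 alone (edgeR adjusted p = 0.0625), where the log2 fold change was -1.56.

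Gas1 (chromosome 13, 60174405 to 60177365, minus strand), a lipid-anchored co-receptor, had 197, 206 and 271 CPM in Ctrl1 to Ctrl3 and 131, 103 and 113 CPM in dKO1 to dKO3. Its knockout-labelled libraries were close together and all below the controls. Gas1 fell, with a log2 fold change of -0.96 ± 0.19 (SE, n = 3 per group, edgeR adjusted p = 0.0152), 1.95-fold lower. The call was lost without Ctrl3, dKO2 or dKO3 (edgeR adjusted p = 0.0619 to 0.0780) and with replicates 1 and 2 alone (0.217, log2 fold change -0.80). Gas1 shares 589 exonic bases with Gm48488 on the opposite strand, which is not among the counted genes, and the strand of counting is not given.

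Boc (chromosome 16, 44485049 to 44558897, minus strand), a paralog of Cdon, had 75.1, 43.7 and 47.6 CPM in Ctrl1 to Ctrl3 and 92.1, 45.7 and 51.8 CPM in dKO1 to dKO3. The groups overlapped almost wholly, with the first replicate highest in each. The log2 fold change was 0.19 ± 0.32 (SE, n = 3 per group, edgeR adjusted p = 0.781), and its sign turned without dKO1 (-0.18) and with a correction for length and GC content (-0.12). A fit of the difference between Boc and Cdon was not made, but the ratio of their counts within a library, which needs no scaling, was 0.131 to 0.148 in the control-labelled and 0.269 to 0.788 in the knockout-labelled libraries.

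Among the Gli factors, Gli2 was called lower and the other two were not. Gli2 (chromosome 1, 118834132 to 119053619, minus strand), the main activator, had 473, 260 and 295 CPM in Ctrl1 to Ctrl3 and 194, 142 and 173 CPM in dKO1 to dKO3. The groups did not overlap, and Ctrl1 stood above the other controls. Gli2 fell, with a log2 fold change of -1.01 ± 0.25 (SE, n = 3 per group, edgeR adjusted p = 0.0369), 2.02-fold lower. The call was lost without Ctrl1, Ctrl3, dKO2 or dKO3 (edgeR adjusted p = 0.0635 to 0.134), with replicates 1 and 2 alone (0.174) and with Xist as a covariate (0.121), and the log2 fold change stayed between -1.47 and -0.71.

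Gli1 (chromosome 10, 127329882 to 127341974, minus strand), an activator whose transcription depends on the pathway, had 142, 93.0 and 99.5 CPM in Ctrl1 to Ctrl3 and 99.4, 44.2 and 55.6 CPM in dKO1 to dKO3. dKO2 and dKO3 lay below all controls and dKO1 was level with Ctrl3, so the groups overlapped. The log2 fold change of -0.75 ± 0.31 (SE, n = 3 per group) was not called (edgeR adjusted p = 0.187), but passed without dKO1 (-1.15, edgeR adjusted p = 0.0263), with replicates 2 and 3 alone (-0.95, 0.00555), with the replicate number as a block (-0.81, 0.0413) and with the correction for length and GC content (-1.26, 0.0235). Gli1 shares 62 exonic bases with Arhgap9 on the opposite strand, a gene at 4.31 to 11.7 CPM. It shares 265 with Gm47200, also on the opposite strand, which is not among the counted genes.

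Gli3 (chromosome 13, 15463235 to 15730026, plus strand), the main repressor, had 239, 115 and 123 CPM in Ctrl1 to Ctrl3 and 144, 86.3 and 86.3 CPM in dKO1 to dKO3. dKO1 exceeded Ctrl2 and Ctrl3. The log2 fold change of -0.59 ± 0.33 (SE, n = 3 per group) was not called (edgeR adjusted p = 0.311), and was -0.18 without Ctrl1. It passed with replicates 2 and 3 alone (-0.47, edgeR adjusted p = 0.0289). Gli3 shares 188 exonic bases with Gm6556, and Hhip 175 with Gm27820, both on the opposite strand and not among the counted genes.

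Within a library, the ratio of Gli3 to Gli2 counts was 0.418 to 0.505 in the control-labelled and 0.499 to 0.740 in the knockout-labelled libraries, with dKO3 just below Ctrl1. The ratio of Gli1 to Gli2 was 0.299 to 0.359 and 0.312 to 0.512, with dKO2 and dKO3 inside the control range. The ratio of Gli1 to Ptch1, both targets of the pathway, was 0.0601 to 0.0908 and 0.101 to 0.1248, without overlap. Ptch1 was thus lower relative to Gli1 in each knockout-labelled library.

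**Figure D2:**
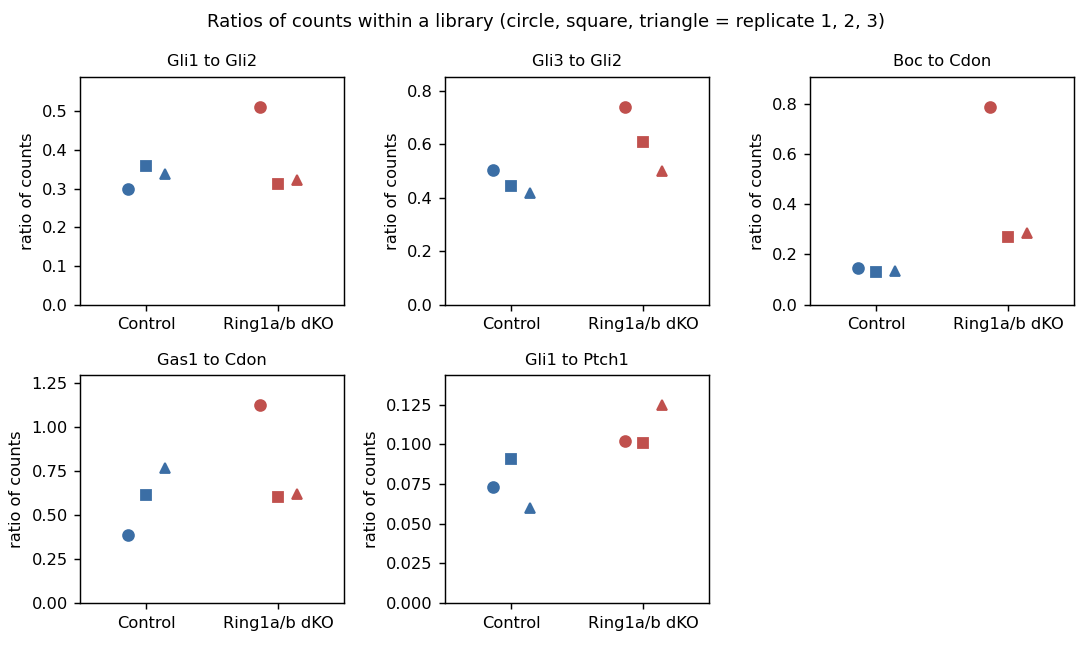
Ratio of the counts of 2 genes within each library (vertical axis, no unit), for the control-labelled (blue) and knockout-labelled (red) libraries. Boc to Cdon and Gli1 to Ptch1 show no overlap between the groups, while Gas1 to Cdon, Gli1 to Gli2 and Gli3 to Gli2 overlap.

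Counted together, 3 of the 9 members were called lower, where 2.98% of all 14890 tested genes were, and 0 were called higher, where 7.17% were. The 0 higher calls held in each of the 17 alternative analyses, and 0 members were higher at an unadjusted p under 0.05. In 4 members every knockout-labelled library was below every control-labelled one, against 14.8% of tested genes, and in 0 members above, against 17.6%. The median log2 fold change of the 9 was -0.96, beside 0.00 for all tested genes. Without replicate 3 of each group 0 members were called lower, and without replicate 1 of each group 6 were, of 85 and 1061 genes called lower in all.

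**Figure D3:**
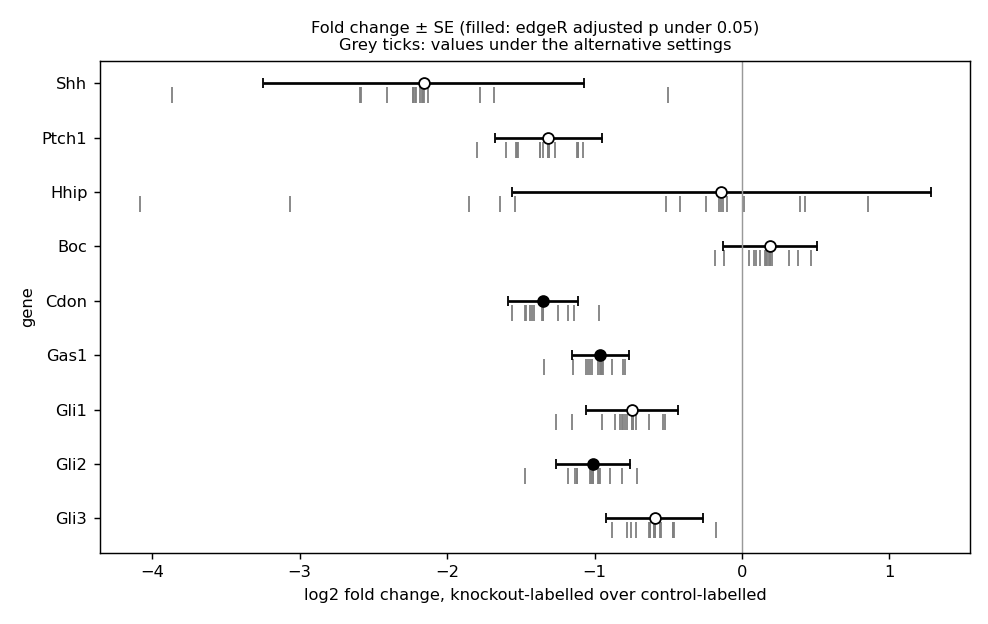
Log2 fold change (horizontal axis, knockout-labelled over control-labelled) of each member with its SE; filled circles passed edgeR's test and grey ticks give the value in each alternative analysis. The values of Cdon, Gas1, Gli2, Ptch1, Gli1, Gli3 and Shh stay below 0 throughout, and those of Boc and Hhip lie on both sides of 0.

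The first replicate was the highest of its group in both groups for 7 of the 9 members, all but Cdon and Gas1, against 18.7% of tested genes. Cdon was highest in Ctrl1 but lowest in dKO1, and Gas1 was highest in Ctrl3 and dKO1. Of the gate antigens, Ly6a (Sca1) was at 15.1 CPM in Ctrl1 and 48.8 to 63.5 CPM in the other libraries. Itga6 (α6-integrin) was at 857 CPM in Ctrl1 and 1020 to 1456 CPM in the others. Epcam was by contrast highest in Ctrl1 and dKO1 of their groups. It was at 168 CPM in Ctrl1 and 116 to 131 CPM in the other controls, and at 381 CPM in dKO1 and 207 to 216 CPM in dKO2 and dKO3. Whether the libraries labelled replicate 1 differ in cell content was not tested.

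Other genes of the pathway were read from a list of 49, chosen by role, of which 44 were tested. Of these, 6 rose and 1 fell, beside 7.17% and 2.98% of all tested genes, and the median log2 fold change was -0.06. Among the 6, Foxf2, Foxc2 and Foxe1 passed the count filter through the knockout-labelled libraries alone, so they could not have been called lower. On the side of the ligand, 1 of 6 tested genes rose and 1 fell. An unadjusted p under 0.05 was found for 5 of the 6, beside 3620 of all 14890 tested genes. Disp1, the transporter that releases the lipid-modified ligand, fell from 121 ± 23.5 to 49.0 ± 17.6 CPM (SD; log2 fold change -1.31 ± 0.29, SE, n = 3 per group; edgeR adjusted p = 0.0245), a call lost without Ctrl1, Ctrl3 or dKO2 (0.0739 to 0.0819). It was also lost with replicates 1 and 2 alone (0.0775) and with Xist as a covariate (0.0612). Scube3, a secreted protein of the family that helps carry the ligand, had 4.61, 4.54 and 1.47 CPM in Ctrl1 to Ctrl3 and 18.0, 18.7 and 24.5 CPM in dKO1 to dKO3. It rose by 2.53 ± 0.44 on the log2 scale (SE, edgeR adjusted p = 0.00940), a call lost with replicates 1 and 2 alone (0.0547). Of the same family, Scube1 was higher without overlap, from 7.88 ± 10.6 to 42.8 ± 2.51 CPM (SD, edgeR adjusted p = 0.117). Scube2 was lower without overlap, from 8.43 ± 3.85 to 3.53 ± 0.819 CPM (SD, edgeR adjusted p = 0.127). Neither was called, and 17.6% and 14.8% of all tested genes were higher and lower without overlap. Dhh, the desert hedgehog ligand, named after its values were seen, had 0.112, 0 and 0.239 CPM in Ctrl1 to Ctrl3 and 0.865, 2.68 and 1.92 CPM in dKO1 to dKO3, and missed the threshold (edgeR adjusted p = 0.0542). Ihh, the Indian hedgehog ligand, had 0 counts in all 6 libraries, which allows up to 0.154 CPM in the shallowest.

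In reception, 1 of 2 listed genes was tested and 0 were called. Smo, the transducer held by Patched, stood at 126 ± 24.4 and 121 ± 5.64 CPM (SD; log2 fold change -0.06 ± 0.18, SE, n = 3 per group; edgeR adjusted p = 0.886).

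The intracellular and ciliary parts gave no call. Of 18 transduction genes 0 passed, with 1 at an unadjusted p under 0.05 and a median log2 fold change of -0.01, and the highest in CPM not scaled by length, the kinase gene Gsk3b, had 575 ± 41.6 and 495 ± 39.7 CPM (SD, n = 3; edgeR adjusted p = 0.450). Of 6 ciliary transport genes 0 passed, although 3 had lower values at an unadjusted p under 0.05 and in 4 the groups did not overlap, all of them lower, beside 3620 of all 14890 tested genes at such a p in either direction and 14.8% with all knockout-labelled libraries lower. The median of these 6 was -0.54, and the highest in CPM not scaled by length, Dync2h1, a dynein heavy chain of retrograde ciliary transport, had 65.3 ± 13.2 and 45.3 ± 1.85 CPM (SD, n = 3; edgeR adjusted p = 0.144).

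Of 13 tested genes listed as targets in various tissues, 5 rose and 0 fell, beside 7.17% and 2.98% of all tested genes. One more was lower at an unadjusted p under 0.05, and the median log2 fold change was 0.50. Sfrp1, a secreted Wnt antagonist, had 32.5, 29.5 and 26.6 CPM in Ctrl1 to Ctrl3 and 80.4, 102 and 106 CPM in dKO1 to dKO3, a rise of 1.70 ± 0.19 on the log2 scale (SE; edgeR adjusted p = 0.00157). The other risers included 3 forkhead factors that were silent or nearly so in the controls. All 3 passed the count filter through the knockout-labelled libraries alone, so they could not have been called lower. Foxf2, a factor of mesenchyme, had 0 counts there and 5.67, 4.01 and 4.55 CPM in dKO1 to dKO3, at least 127-fold higher if 3 counts are allowed over the control group (edgeR adjusted p = 0.00207).

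Foxc2, a factor of mesenchyme and lymphatic vessels, had 0 control-labelled counts and 1.11, 1.39 and 0.422 CPM in dKO1 to dKO3, at least 23.9-fold higher (edgeR adjusted p = 0.0228), a call lost without Ctrl1, Ctrl2, Ctrl3, dKO1 or dKO2 (0.0525 to 0.0880). The call was also lost with replicates 1 and 2 alone (0.0938), with the replicate block (0.0657) and with Xist as a covariate (0.0712). Foxe1, a thyroid and palate factor also known from follicle epithelium, went from 1 to 117 counts over 3 libraries, a ratio of 117 (95% interval 20.5 to 4642 for counting error only; edgeR adjusted p = 0.00897). Its call was lost with replicates 1 and 2 alone (0.107). Ccnd1, the D-type cyclin named after its values were seen, rose from 257 ± 22.1 to 426 ± 76.5 CPM (SD, n = 3; edgeR adjusted p = 0.0392), a call lost without any 1 library except dKO3 (0.0597 to 0.142). That call was also lost with replicates 1 and 2 alone (0.144), with the replicate block (0.0573) and with Xist as a covariate (0.116). Gli1 and Ptch1, members and targets much used as pathway readouts, had negative log2 fold changes and were not called.

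**Figure D4:**
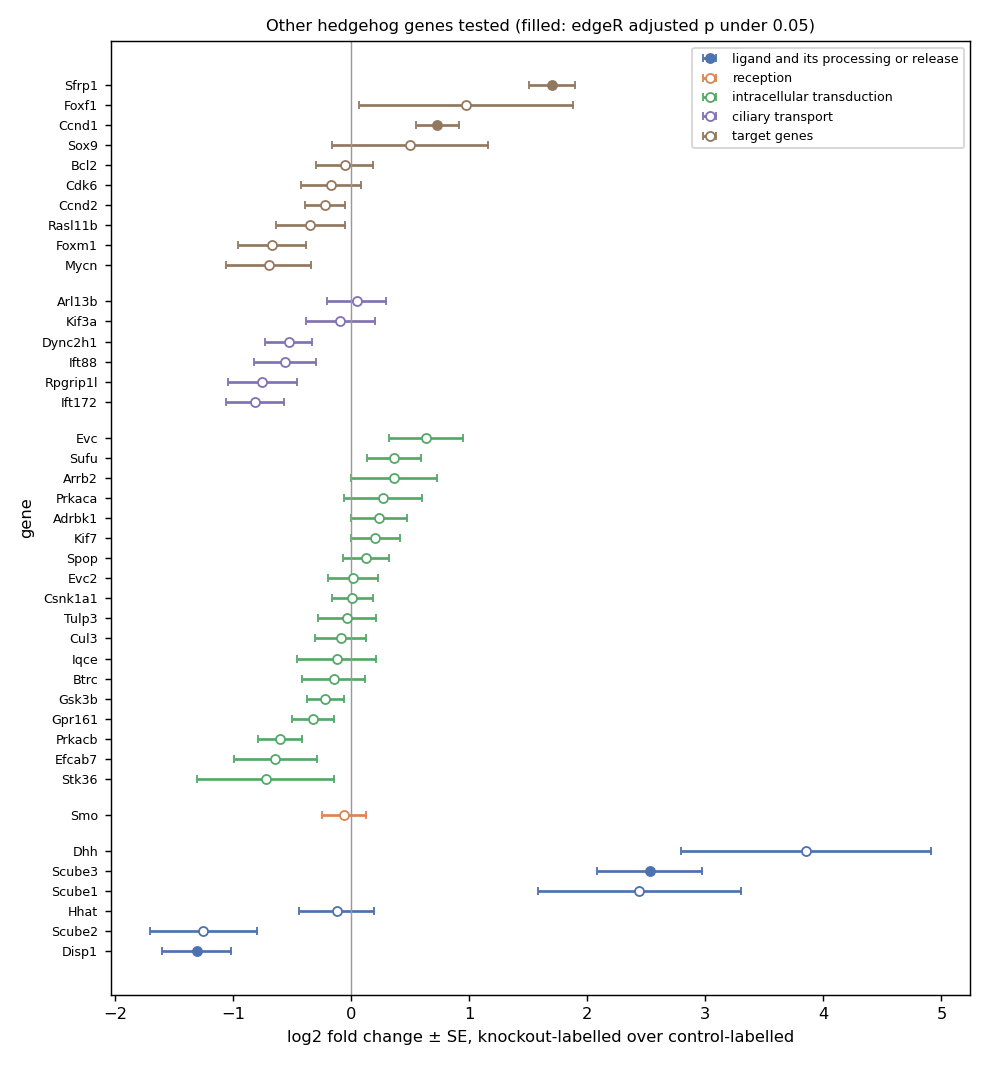
Log2 fold change with SE (horizontal axis, knockout-labelled over control-labelled) of the other hedgehog genes tested, coloured by role, with filled circles for edgeR adjusted p under 0.05. Disp1 lies below 0, Scube3, Sfrp1 and Ccnd1 lie above it, and Foxf2, Foxc2 and Foxe1 are not drawn because their fitted values are no bound.

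By pattern over the 6 libraries, the genes most like Gli1 among 10477 with a mean of at least 5 CPM were Atf7 (Pearson r = 0.991), Tmem176a (0.991), Brpf3 (0.990), Thbs1 (0.990) and Timp3 (0.988). Those most like Shh among 10478 were Iqgap3 (0.995), Arid5b (0.991), Npat (0.991), Capn6 (0.991) and Amacr (0.990). These r values describe log2 CPM of 6 libraries that share their scaling, and 86 genes for Gli1 and 120 for Shh exceeded 0.95. None of the 10 genes was called between the groups (edgeR adjusted p = 0.0909 to 0.416). All 10 were, like Gli1 and Shh, highest in Ctrl1 and dKO1 of their groups, which their choice by correlation over the same libraries largely fixes.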

How the data were processed

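The authors deposited 1 table of raw counts per library, whole numbers listed by gene symbol. Per the submitters' processing notes, the tools were DESeq2 1.6.3, HTSeq 0.6.1, Cufflinks 2.2.1 and TopHat2 2.0.13, with mm10, and the steps, annotation and strand of counting are not given in the sources used here. Per the labels' protocols, sorted-cell RNA was amplified before sequencing, and no molecular identifiers are named, so counting intervals and floors cover counting error only.

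Groups came from sample titles, with Ctrl for control-labelled and dKO for knockout-labelled libraries. All genes were fitted together in edgeR 4.0.16 (R 4.3.3), with TMM scaling, filterByExpr (minimum count 10, minimum total 15), a two-sided quasi-likelihood F test without covariates and Benjamini-Hochberg adjustment over all tested genes. Called means an adjusted p under 0.05. SE is the log2 fold change divided by the square root of F. The prior count was edgeR's default and the biological coefficient of variation 38.3%. The pipeline was also run on simulated counts of independent libraries, drawn with the dispersions fitted here. Such counts hold no replicate effect, so they do not check the calls against one. Positions and exon lengths are from GENCODE M21 (23753 symbols matched 1 gene), promoters from RefSeq on GRCm38.p6. Within groups, pairs of libraries differed far beyond sampling noise (chi-square over its degrees of freedom at least 28.6), so none is a copy.

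The members and lists were chosen with earlier results of these data known. One gene of the lists is not reported here. Named genes are all members, Ring1, Rnf2 and Xist, up to 4 called genes per role of the other hedgehog genes (without any, the one with the highest CPM), the one with the highest CPM and up to 3 called markers of each cell type, and the 5 genes most correlated with Gli1 and Shh; genes said to be named after their values were seen, and those without a call, are extra. Alternatives were DESeq2 1.42.0 and limma-voom (limma 3.58.1), other scalings and filters, a replicate block, an Xist covariate, subsets of libraries and a correction for length and GC content (mgcv 1.9.3), for which 97.8% of tested genes had values. Figures used matplotlib 3.10.9.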

Additional observations from a re-analysis of the deposited data

How the results depend on the processing

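Of the 9 members, Cdon, Gas1, Gli2, Ptch1, Gli1, Gli3 and Shh kept a negative log2 fold change in all 17 alternatives. Hhip turned positive without Ctrl1, dKO2 or dKO3 (0.85, 0.43 and 0.39; range over single libraries left out -4.09 to 0.85) and with the first 2 replicates alone (0.016). Boc turned negative without dKO1 (-0.18; range -0.18 to 0.47) and with the correction for length and GC content (-0.12), and neither gene was called in any alternative that gave it a value. Smo, not called in any alternative, turned positive without Ctrl1 (0.11; range over single libraries left out -0.15 to 0.11) and with replicates 2 and 3 alone (0.072). The call was kept in 16 alternatives for Cdon, 13 for Gas1 and 11 for Gli2. With only replicates 1 and 2, 0 members, 2 other hedgehog genes higher and 0 lower, and 439 of all tested genes were called, against 3, 6, 1 and 1512. With only replicates 2 and 3, 6 members and 5 other hedgehog genes were called lower, of 1061 genes called lower and 2694 called in all. DESeq2 called 3 other hedgehog genes lower, of 896 genes called lower and 2535 in all. The Xist covariate left 0 of them, of 174 called lower and 810 in all. The correction for length and GC content called 5 members and 2 other hedgehog genes lower, of 559 genes called lower in all. The main fit called 444 genes lower in all. Without 1 library, 1 to 5 members and 0 to 2 other hedgehog genes were called lower. Of all tested genes, 174 to 436 were then called lower and 811 to 1393 in either direction. The cause of these shifts was not tested, and fewer libraries enter where some were left out. Same-numbered libraries deviated together with correlations of 0.175, 0.228 and 0.0773 for replicates 1, 2 and 3, and each library correlated best with its own number, a hint from the data and not from the design. With the replicate block 6 members and 2 other hedgehog genes were called lower, of 435 genes called lower and 1451 in all. The members included Shh (-2.23, edgeR adjusted p = 0.0332), Ptch1 (-1.37, 0.0117) and Gli1 (-0.81, 0.0413). Under the strict filter of 50 counts in 3 libraries Hhip was not tested. Hhip and Shh had as few as 0 and 5 counts in a library.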

Other observations

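Some genes outside the members shared the high first replicate. Sox9, a factor of follicle epithelium and a hedgehog target, had 307, 85.9 and 89.0 CPM in Ctrl1 to Ctrl3 and 460, 105 and 117 CPM in dKO1 to dKO3, and did not pass (edgeR adjusted p = 0.711). Lgr5, a follicle stem cell receptor, had 17.1, 1.49 and 1.23 CPM in the controls and 3.29, 1.18 and 0.877 CPM in the knockout-labelled libraries. Krt17, also of follicle epithelium, was by contrast lowest in Ctrl1 (362, 558 and 679 CPM) and highest in dKO1 (940, 894 and 739.9 CPM). Of the listed follicle markers, only Lgr5, Edar, Krt79 and Cux1 were highest in both Ctrl1 and dKO1. Lhx2, Hoxc13 and Gata3 were highest in Ctrl1 but lowest in dKO1, and the rest were not highest in Ctrl1. The genes named here were chosen after their values were seen, and their part in the levels of Shh and Hhip was not tested.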
